A study of Mus musculus with 26 samples.

Results

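The 7 genes described here are transcripts of red blood cells, measured in mouse brown adipose tissue (BAT). They comprise the adult alpha globins Hba-a1 and Hba-a2, the adult beta globins Hbb-bs and Hbb-bt, the heme enzyme gene Alas2, the membrane gene Slc4a1 and the metabolic gene Bpgm. They were chosen by name among the 50686 genes of the count table, and all 7 were among the 17286 genes with enough counts to be tested. The seventh name had been given as "Bpgm-like", which is no gene symbol, so the gene Bpgm was used. BAT of the supraclavicular depot was taken from 26 male C57BL/6J mice, 12 to 16 weeks old, that carried a fat-specific knockout of Afadin (Adiponectin-Cre with floxed Mllt4, labelled KO) or were control littermates (labelled WT). Adiponectin-Cre is active in adipocytes. All mice were first kept at thermoneutrality for 2 weeks (30 °C in the labels, 29 °C in the study's methods), and some mice of each genotype were then moved to 5 °C for 6 h. The 4 groups were WT30 (n = 7), KO30 (n = 7), WT5 (n = 5) and KO5 (n = 7), with 1 library per mouse. Whether blood was flushed from the tissue before RNA extraction is not given in the sources used here.

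Hemoglobin, the oxygen carrier of red blood cells, is built from alpha and beta globin chains, each holding a heme group. Developing red cells make these chains in the bone marrow and spleen, then lose their nucleus and enter the blood as reticulocytes that still carry RNA, which they shed as they mature. Alas2 encodes the red-cell form of the first enzyme of heme synthesis, Slc4a1 the anion exchanger band 3 of the red-cell membrane, and Bpgm the enzyme that makes 2,3-bisphosphoglycerate, which lowers the oxygen affinity of hemoglobin. BAT is densely supplied with vessels, and unless it is flushed a sample of it holds blood.

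The alpha globin genes lie together on chromosome 11 and the beta globin genes on chromosome 7 (GRCm38, the build named mm10 in the study). Hba-a1 (ENSMUSG00000069919) is at chr11:32283511-32284465 on the plus strand and Hba-a2 (ENSMUSG00000069917) at chr11:32296489-32297298 on the same strand. Hbb-bs (ENSMUSG00000052305) is at chr7:103826534-103828096 and Hbb-bt (ENSMUSG00000073940) at chr7:103812524-103813996, both on the minus strand. Within each pair the coding sequences differed at 1 base, with no difference in the 142 residues of the alpha chain or the 147 residues of the beta chain. The stretches below surround that base, shown in capitals, because it is the single coding base by which reads of the copies can be told apart. Positions are counted from 1 at the first base of the start codon.
Hba-a1, coding bases 351 to 411: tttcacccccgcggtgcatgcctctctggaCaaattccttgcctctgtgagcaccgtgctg
Hba-a2, coding bases 351 to 411: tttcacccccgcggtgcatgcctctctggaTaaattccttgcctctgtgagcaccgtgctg
Hbb-bs, coding bases 384 to 444: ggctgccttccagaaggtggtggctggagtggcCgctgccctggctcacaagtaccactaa
Hbb-bt, coding bases 384 to 444: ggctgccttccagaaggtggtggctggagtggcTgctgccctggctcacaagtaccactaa
The substitution was C381T from Hba-a1 to Hba-a2 and C417T from Hbb-bs to Hbb-bt. Of all 100-base windows of the transcript, the length of 1 read, 56.5% were shared letter for letter with the other copy for Hba-a1, 74.5% for Hba-a2, 62.6% for Hbb-bs and 54.8% for Hbb-bt. How reads that fit both copies were counted is not given in the sources used here, so the split within each pair is uncertain, and a difference between the copies is not read from these data. Alas2 (chrX:150547375-150570638, plus strand), Slc4a1 (chr11:102348824-102366203, minus strand) and Bpgm (chr6:34476207-34505613, plus strand) shared no such window with another of the 7 genes. Alas2 overlaps Apex2 on the opposite strand. The libraries were stranded, but whether strand was used in counting is not given.

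Because these genes moved together between mice, the bases before the start of 3 of them are shown, from RefSeq (GRCm38.p6), read along the gene's strand. The windows of Hba-a1 and Bpgm lay inside annotated exons and most of that of Hbb-bt did, so they are not shown. The last 3 bases of the Hba-a2 window and the last 17 of the Hbb-bs window lie in the annotated gene. Capitals mark motifs found on either strand, among GATAA (the core bound by GATA factors), CACCC (bound by factors of the Kruppel-like family), TATAAA (the TATA box) and CCAAT (the CCAAT box). No marked motifs overlap.
Hba-a2 promoter, chr11:32296392-32296491, plus strand: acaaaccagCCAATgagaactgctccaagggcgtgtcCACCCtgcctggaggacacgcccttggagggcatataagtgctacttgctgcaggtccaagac
Hbb-bs promoter, chr7:103827929-103828028, minus strand: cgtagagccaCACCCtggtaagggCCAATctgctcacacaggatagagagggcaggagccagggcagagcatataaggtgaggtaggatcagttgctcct
Alas2 promoter, chrX:150547317-150547374, plus strand: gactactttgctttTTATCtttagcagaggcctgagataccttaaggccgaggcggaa
The Hba-a2 and Hbb-bs windows each held 1 CACCC and 1 CCAAT, and the Alas2 stretch of 58 bases held 1 GATAA, here as its reverse complement. The other 42 bases of the Alas2 window, which lie in an annotated exon and are not shown, held 3 CACCC. Among the 100 bases before the start of 32851 promoters, 27.2% held CACCC, 18.9% CCAAT, 8.5% GATAA and 3.8% TATAAA. A match is a description of the letters only.

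Libraries held 12705969 to 25732258 counted reads (median 17237377). Before scaling, 3 counts correspond to 0.117 to 0.236 reads per 1e6 counted reads. The CPM values (reads per 1e6) that follow are TMM-scaled, so this floor is approximate for them. Afdn, the targeted gene (older symbol Mllt4), had 152 to 214 CPM in WT30 and 154 to 231 in KO30, a log2 difference of -0.01 ± 0.08 (SE) that was not called. At 5 °C it had 67.8 to 79.2 CPM in WT5 and 53.2 to 65.3 in KO5, so that all 7 KO5 mice lay below every WT5 mouse, with a log2 difference of -0.33 ± 0.09, which did not pass the threshold over all genes (adjusted p = 0.116, edgeR quasi-likelihood, Benjamini-Hochberg). The KO mice are therefore named by their label. The brown adipocyte markers summed to 7258 to 9198 CPM at 30 °C and 28180 to 36040 at 5 °C, and Ucp1, the uncoupling protein of brown adipocytes, rose in the cold by 4.02 (log2) in WT and 4.34 in KO. The sum of 11 skeletal muscle markers ranged from 1.5 to 9114 CPM between mice, and its group-centred correlation with Hbb-bs was r = -0.02. CPM here are counts scaled by TMM library totals. Fold changes are log2, with a standard error (SE) worked back from the change and its quasi-likelihood F statistic. That fit estimates the spread of each gene from all 4 groups together.

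Hbb-bs was by far the highest of the 7 genes per length of transcript. Its mean over all 26 mice was 589 RPKM (CPM divided by the exon length in kilobases), against 56.4 for Hba-a1, 54.1 for Hbb-bt, 23.1 for Hba-a2, 12.2 for Alas2, 5.8 for Bpgm and 0.282 for Slc4a1. Hba-a1 and Hbb-bt lay within 1 SD of each other in each of the 4 groups, and the order of the globin copies depends on how shared reads were split. Hbb-bs held 12.5 ± 2.84 (SD, n = 26) times the counts of Hbb-bt, and 17.2 ± 3.91 times when counts were divided by the windows each copy does not share, as if shared reads had been left out. For Hba-a1 over Hba-a2 the ratios were 2.94 ± 0.44 and 1.31 ± 0.20. The 4 globins together made up 0.0219% to 0.1365% of all counted reads, with a median of 0.0424%. Slc4a1 rested on 2 to 73 reads per mouse and is the least precise of the 7.

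All 7 genes were higher in the cold than at thermoneutrality in the KO mice. Hbb-bs ranged from 218 to 486 CPM in KO30 (median 294) and from 398 to 1174 in KO5 (median 661), with 5 of 7 cold mice above the highest KO30 mouse. Hba-a1 ranged from 22.4 to 44.3 CPM in KO30 (median 29.5) and from 38.7 to 117.9 in KO5 (median 69.9). The KO5 group was wide: mice 26, 27 and 28 held the highest globin levels, mice 24 and 25 the lowest. Mice 24 and 25 lay within the KO30 range for Hbb-bs, and mouse 24 did for Hba-a1. Hba-a2 went from 6.8 to 14.6 CPM (median 11.9) to 16.6 to 34.6 (median 19.9), and Hbb-bt from 11.2 to 30.0 CPM (median 25.6) to 35.1 to 104.3 (median 58.8). For these genes no KO5 mouse overlapped the KO30 group. The share of all tested genes without such overlap was not counted, so nothing is read from it as particular to them.

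Alas2, which supplies heme to the growing red cell, ranged from 16.3 to 33.3 CPM in KO30 (median 22.8) and from 27.9 to 69.3 in KO5 (median 40.5), with 6 of 7 cold mice above every KO30 mouse. Slc4a1, the band 3 gene, ranged from 0.457 to 1.35 CPM in KO30 (median 1.12) and from 0.596 to 4.45 in KO5 (median 2.19). Bpgm moved least, from 16.9 to 23.9 CPM in KO30 (median 19.3) to 20.2 to 31.0 in KO5 (median 22.8), and only 2 of 7 cold mice lay above the highest KO30 mouse. KO5 mouse 26 held the highest Bpgm and Slc4a1 of its group, and mouse 27 the highest Hbb-bs and Alas2.

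The cold response in KO was 1.24 ± 0.28 (log2, SE) for Hbb-bs, a 2.37-fold rise, and its adjusted p was 0.000352 in the edgeR quasi-likelihood fit, Benjamini-Hochberg adjusted. In the same test the log2 changes of the other globins were 1.47 ± 0.30 for Hbb-bt, 1.30 ± 0.31 for Hba-a1 and 1.16 ± 0.29 for Hba-a2, with adjusted p between 0.000107 and 0.00102. Alas2 rose by 0.99 ± 0.27 (adjusted p = 0.00212) and Slc4a1 by 1.15 ± 0.45 (adjusted p = 0.0263). Bpgm rose by 0.28 ± 0.12 (adjusted p = 0.0385), but with the libraries scaled by their totals alone its value was -0.03, in a fit whose median over all genes was -0.34. The count of 7 of 7 genes called higher stands beside 33.7% of all tested genes called higher in this comparison and 68.6% called in either direction. Over all genes 5825 were higher and 6035 lower, a split that moved to 3223 and 8384 with library size alone and to 4694 and 7369 with upper-quartile factors. The median log2 change was 1.16 over the 7 genes and -0.03 over all genes. Leaving out each mouse in turn gave counts of 5 to 7. Slc4a1 missed the threshold without KO30 mouse 9 (adjusted p = 0.0652), KO30 mouse 13 (0.0547) or KO5 mouse 26 (0.0855), and Bpgm without KO30 mice 9, 10, 12, 13 or 14 or KO5 mice 23, 26 or 27, each left out singly (adjusted p from 0.0503 to 0.133). The 4 globins and Alas2 passed in all 14 of these fits. In bulk tissue, more cells of a type and more RNA per cell cannot be told apart.

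In the WT mice none of the 7 genes was called between temperatures, although 65.0% of all tested genes were called in that comparison. Hbb-bs ranged from 184 to 862 CPM in WT30 (median 329) and stood at 321, 537, 326, 355 and 380 CPM in WT5 mice 16, 17, 18, 19 and 21. Alas2 ranged from 12.6 to 61.2 CPM in WT30 (median 20.9) and stood at 23.8, 32.8, 25.2, 25.9 and 22.5 CPM in the same WT5 mice. WT30 mouse 7 set the upper end of its group for all 7 genes, and the next highest WT30 mouse had 368 CPM of Hbb-bs and 25.2 CPM of Alas2. WT5 mouse 17 was the highest of its group for all members but Slc4a1.

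The log2 changes in WT lay between -0.20 (Bpgm) and 0.08 (Alas2), with a median of 0.05 and adjusted p from 0.184 to 0.958 in the edgeR quasi-likelihood fit, Benjamini-Hochberg adjusted. No gene passed the threshold and 0 of 7 had an unadjusted p under 0.05. These values rest on WT30 mouse 7: without it the log2 changes were 0.42 for Hbb-bs (adjusted p = 0.139), 0.47 for Hba-a1, 0.25 for Hba-a2, 0.36 for Hbb-bt, 0.48 for Alas2 (adjusted p = 0.0554), 0.51 for Slc4a1 and -0.10 for Bpgm, with no gene called. DESeq2's Wald test also called none of the 7. A missing call does not show that the genes were unchanged in WT mice. The comparisons share groups: KO30 and WT30 mice enter the cold responses and the comparison at 30 °C.

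**Figure D1:**
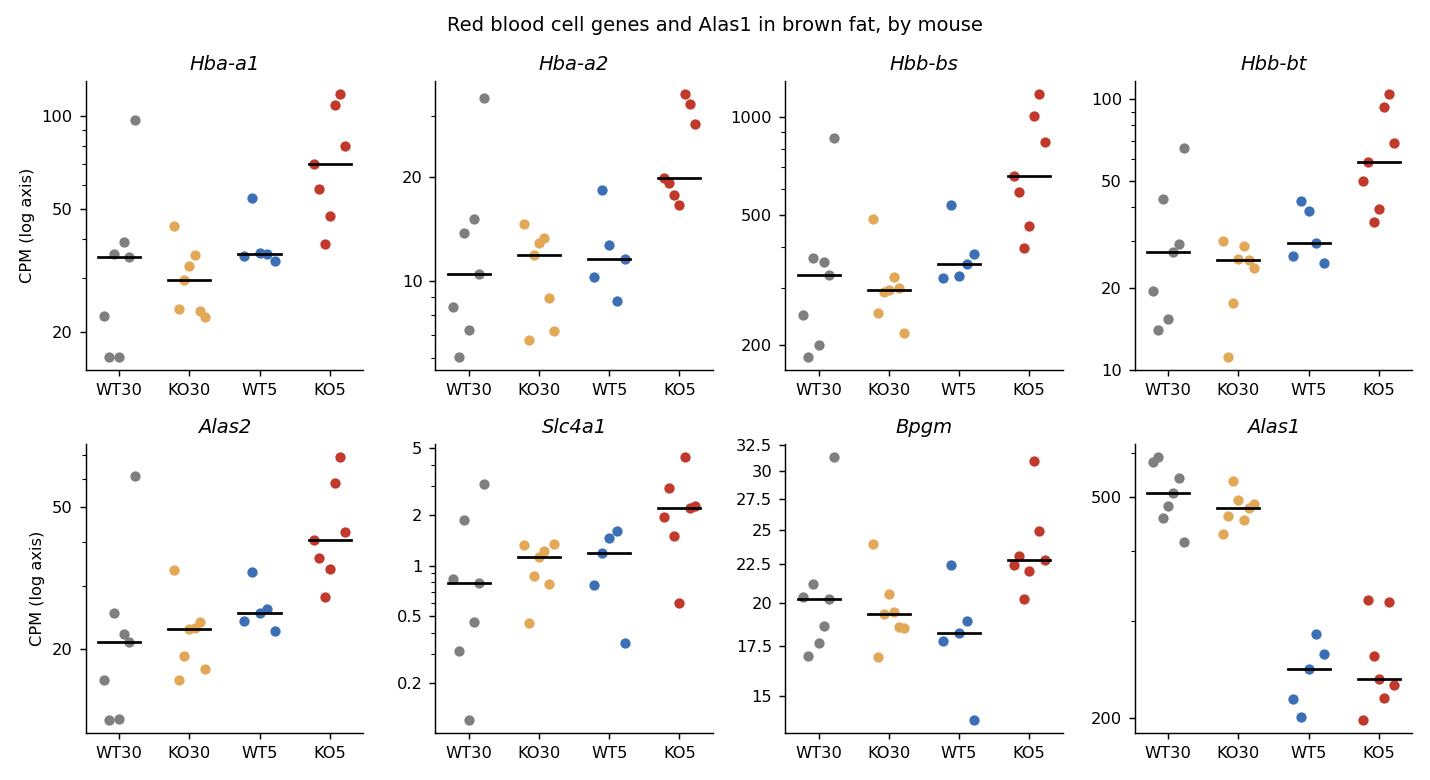
CPM (log axis) of the 7 red blood cell genes and of Alas1 in each mouse, by group, with 1 point per mouse and a bar at the group median. KO5 holds the highest medians of all 7 genes, WT30 mouse 7 stands above the rest of its group, and Alas1 is lower at 5 °C in both genotypes.

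At thermoneutrality none of the 7 genes was called between KO and WT mice. All 7 log2 differences (KO30 minus WT30) were negative, from -0.40 ± 0.30 (Hbb-bt) to -0.10 ± 0.12 (Bpgm), with adjusted p from 0.824 to 0.984 in the edgeR quasi-likelihood fit, Benjamini-Hochberg adjusted. Their sign followed WT30 mouse 7, since without it 6 of the 7 were positive (0.05 to 0.45) and Hbb-bt was -0.08. In this comparison 0.081% of all tested genes were called, so a count of 0 of 7 is near the background.

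In the cold the KO mice held more of each transcript than the WT mice by group mean, but no gene passed the threshold over all genes. Hbb-bs averaged 732 ± 286 CPM (SD, n = 7) in KO5 and 384 ± 88.8 (SD, n = 5) in WT5, and 5 of 7 KO5 mice lay above the highest WT5 mouse. Alas2 averaged 44.0 ± 14.7 CPM against 26.0 ± 3.98, with 6 of 7 KO5 mice above every WT5 mouse. KO5 mouse 24 was the one below that line for Alas2, and mice 24 and 25 for Hbb-bs. The log2 differences (KO5 minus WT5) were 0.93 ± 0.31 for Hbb-bs, 0.93 ± 0.34 for Hba-a1, 0.97 ± 0.32 for Hba-a2, 0.99 ± 0.33 for Hbb-bt, 0.76 ± 0.30 for Alas2, 1.06 ± 0.50 for Slc4a1 and 0.38 ± 0.13 for Bpgm.

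The adjusted p of these differences ran from 0.192 to 0.357 in the edgeR quasi-likelihood fit, Benjamini-Hochberg adjusted, in a comparison where 0.139% of all tested genes were called. All 7 had an unadjusted p under 0.05 and were higher in KO5, beside 7.47% of all tested genes. The exact two-sided permutation test of each gene alone (7 mice against 5) gave p = 0.0126 for Hbb-bs, 0.00505 for Alas2 and 0.0783 for Slc4a1, with no adjustment over genes. Without WT30 mouse 7 and KO5 mice 23 and 27, whose markers of other blood cells stood apart, the Hbb-bs difference was 0.82 (adjusted p = 0.127).

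The cold responses of the 2 genotypes were compared directly as the response in KO minus the response in WT. The difference was 1.17 ± 0.42 (log2, SE) for Hbb-bs and ranged from 0.48 ± 0.18 (Bpgm) to 1.40 ± 0.44 (Hbb-bt). None was called (adjusted p from 0.115 to 0.403, edgeR quasi-likelihood, Benjamini-Hochberg), where 1.16% of all tested genes were. At the unadjusted threshold of 0.05, all members but Slc4a1 were higher (6 of 7), beside 9.12% of all tested genes. The call in KO and its absence in WT therefore do not show that the genotypes responded differently. Without WT30 mouse 7 the difference for Hbb-bs was 0.79 (adjusted p = 0.209) and that for Alas2 0.48 (adjusted p = 0.408), against 0.90 with it.

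**Figure D2:**
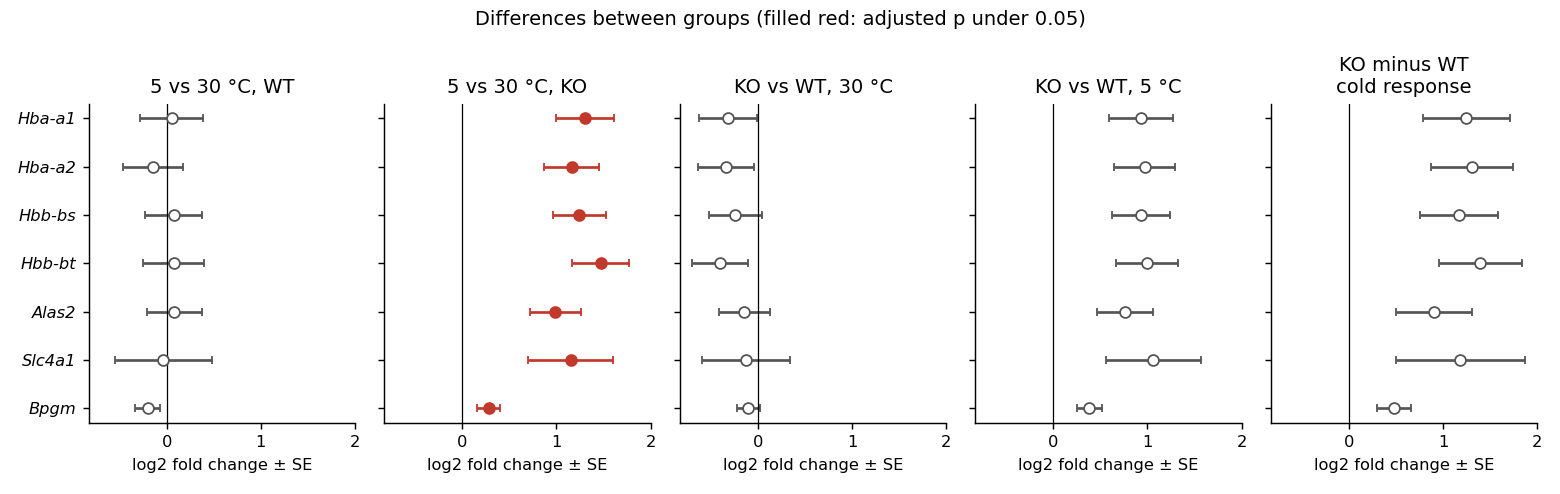
Log2 fold changes with SE of the 7 genes in 5 comparisons, with a filled red point where the adjusted p is under 0.05. All 7 points are red for cold in KO and none elsewhere, and Bpgm has the smallest change there (0.28, or -0.03 when libraries are scaled by their totals alone).

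The 7 genes varied together between mice of the same group. After the mean of each group was taken away, log2 CPM of Hbb-bs correlated over the 26 mice with Hba-a1 (Pearson's r = 0.98, Spearman's rho = 0.94), Alas2 (r = 0.97, rho = 0.93), Hba-a2 (r = 0.92, rho = 0.92) and Hbb-bt (r = 0.87, rho = 0.85). The relation was looser for Bpgm (r = 0.80, rho = 0.69) and Slc4a1 (r = 0.66, rho = 0.50). The permutation p of Pearson's r, with mice exchanged within groups and adjusted over the 6 relations, was 1.5e-05 for the first 4 genes, where the raw value of 1e-05 is the smallest the permutations can give. It was 4.8e-05 for Bpgm and 0.00212 for Slc4a1, and for Spearman's rho it was 1.5e-05, 0.000552 and 0.0189. Without WT30 mouse 7 and KO5 mouse 27, the farthest from the median of Hbb-bs on this scale, r was 0.95 for Hba-a1, 0.94 for Alas2, 0.87 for Hba-a2, 0.79 for Hbb-bt, 0.71 for Bpgm and 0.56 for Slc4a1. Reads shared between copies enter the correlation within a globin pair, while Alas2 shares none with the globins.

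Within single groups of 7 mice the same order held in part. The correlation of Hbb-bs with Alas2 was r = 1.00 in WT30, 0.93 in KO30 and 0.97 in KO5, and that with Slc4a1 was 0.85, 0.34 and 0.64. With Hbb-bt it was only 0.52 in KO30. In WT5 (n = 5) r was looser: 0.82 with Alas2, 0.52 with Hbb-bt, 0.51 with Bpgm and 0.02 with Slc4a1. The ratio of Hbb-bs to Alas2 reads stayed between 12.5 and 19.6 in every mouse, although Hbb-bs itself spanned 184 to 1174 CPM. The ratio of beta to alpha globin reads was 8.11 ± 0.78 in WT30, 8.18 ± 1.05 in KO30, 8.11 ± 0.62 in WT5 and 8.03 ± 0.35 in KO5 (SD), which differed by less than the spread between mice.

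**Figure D3:**
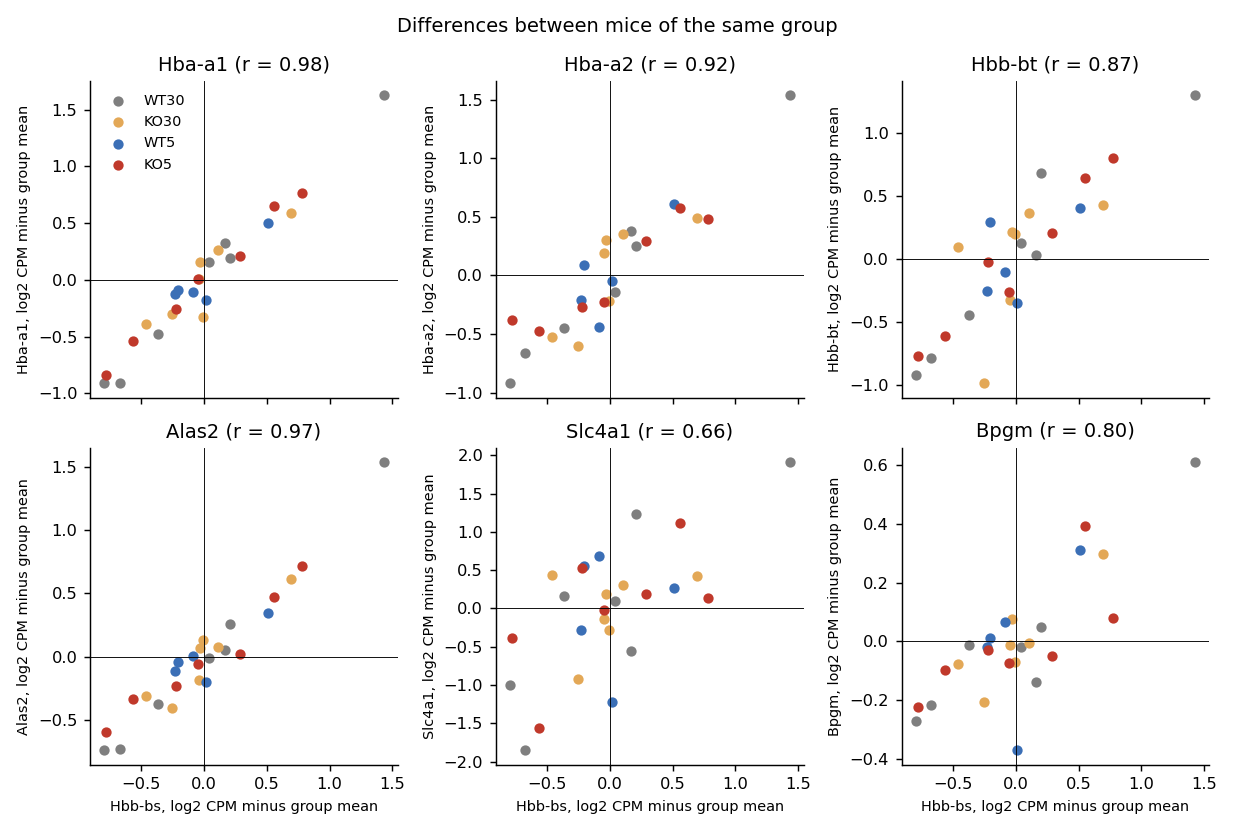
Log2 CPM minus the group mean for Hbb-bs (x axis) against each of the other 6 genes (y axis), with 1 point per mouse and colours by group. The points of Hba-a1 and Alas2 follow Hbb-bs closely (r = 0.98 and 0.97), those of Slc4a1 scatter (r = 0.66), and WT30 mouse 7 is the point at the upper right.

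Genes outside the 7 were ranked by the correlation of their group-centred log2 CPM with the mean of the 4 globins over the 26 mice, as a description. Among the 10 most alike were Tent5c (r = 0.94), Ube2l6 (0.86), Slc25a37 (0.84), Isg20 (0.80), Ttll5 (0.73), Gmeb1 (0.73), Tubb1 (0.70) and Lrrc25 (0.69). Among all 17286 tested genes, the 4 globins, which are part of that mean, and Alas2 took the first 5 ranks, Bpgm rank 10 and Slc4a1 rank 13. Tent5c averaged 10.8 CPM in KO30 and 22.0 in KO5 (log2 change 1.02, adjusted p = 0.00145, edgeR quasi-likelihood, Benjamini-Hochberg). Likeness between mice and change with cold were separate, as Ttll5 fell in the cold in KO (-0.73, adjusted p = 1.31e-09). Without WT30 mouse 7 and KO5 mouse 27, r was 0.90 for Tent5c but 0.49 for Tubb1.

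Many other genes of the red cell lineage were too low to be tested. The counts of the lists that follow stand beside the shares of all tested genes called lower in the cold, 34.9% in KO and 33.4% in WT, and called in either direction, 68.6% and 65.0%. With lists this short, nothing is read from a count as particular to a list. The list of other globins held 8 names, among them the embryonic chains and Ahsp, which is no globin. Of these, 7 were found in the table and none had enough counts to be tested. Hbb-y and Hba-x had 1 count each over all 26 mice, Hbq1a had 18 and Hbq1b had 21. Of 15 red cell membrane genes, 9 were tested, and in KO cold 1 rose and 4 fell, with a median log2 change of 0.07, while in WT 0 rose and 2 fell (median -0.06). Gypc and Dmtn, a glycophorin and an actin-binding protein that other cells also make, fell in both genotypes. In KO, Gypc changed by -1.51 and Dmtn by -1.43 on the log2 scale.

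Of 10 erythroid regulators, 7 were tested; 5 fell and none rose in KO cold (median -0.56), and 4 fell and none rose in WT (median -0.76). Epor, the erythropoietin receptor, fell by 2.11 on the log2 scale in KO and by 1.90 in WT. The defining regulators Gata1 and Klf1, named here after their values were seen, were too low to be tested, with at most 11 and 7 counts in any mouse and 0 in 9 and 8 mice. Of 8 genes of late red cell precursors, 4 were tested, 2 fell in KO cold (median -0.50) and 3 in WT (median -0.75). The fallers in both genotypes were Tfrc, the transferrin receptor (-1.49 in KO, -1.82 in WT), and Car1, a carbonic anhydrase (-0.95 and -1.09). Over all mice Tfrc averaged 283 CPM and the regulator Ldb1 25.6, against 0.0777 for Gata1 and 0.115 for Klf1. Which cells of the tissue held the tested transcripts of these lists was not determined. Their falls are therefore not read as fewer red cell precursors. Of 7 relatives of the members that other cells use, 4 rose and 1 fell in each genotype, with Slc4a2, a widely made anion exchanger, at 0.75 in KO and 0.86 in WT, and Pgam1, a glycolytic mutase related to Bpgm, at 0.83 and 0.72.

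Of 12 other genes of heme synthesis, 1 rose and 7 fell in KO cold (median -0.24), and 1 rose and 8 fell in WT (median -0.53), so that the number called in either direction was near the share over all genes. Alas1, which makes the first enzyme of the pathway in cells outside the red lineage, had 430 to 536 CPM in KO30 (median 478) and 199 to 327 in KO5 (median 235). In WT it had 415 to 591 CPM at 30 °C (median 508) and 217, 201, 245, 284 and 261 CPM in the WT5 mice in order of number. No cold mouse of either genotype overlapped the warm mice, and the share of all tested genes for which this holds was not counted. The log2 change was -0.90 ± 0.10 in KO (adjusted p = 2.06e-08) and -1.08 ± 0.12 in WT (adjusted p = 7.03e-09, edgeR quasi-likelihood, Benjamini-Hochberg).

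Alas2 was thus called higher and Alas1 lower in the cold in KO mice. Alad, the next enzyme of the pathway, fell by 1.14 on the log2 scale in KO and by 1.39 in WT. Fech, which inserts iron into the ring, fell by 0.25 in KO and by 0.50 in WT.

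Genes for the clearance of hemoglobin and heme were called with cold for 11 of 12 in each genotype, 6 higher and 5 lower. Hmox1, the enzyme that opens the heme ring, averaged 9.24 ± 1.12 CPM (SD) in WT30 and 542 ± 143 in WT5, and 10.4 ± 3.13 in KO30 and 422 ± 191 in KO5. Hpx, which encodes the heme-binding protein hemopexin, rose by 7.17 ± 0.49 (log2, SE) in WT and 6.03 ± 0.44 in KO. Cd163, the macrophage receptor for hemoglobin bound to haptoglobin, rose by 0.78 ± 0.13 in WT and 1.29 ± 0.12 in KO. The 5 lower genes were the same in both genotypes. Slc40a1 changed by -1.23 in WT and -1.04 in KO, Slc48a1 by -0.91 and -0.64, and Blvrb by -0.64 and -0.29. Blvra changed by -0.60 in WT and -0.43 in KO, and Lrp1 by -0.56 and -0.33. Whether these changes bear on the levels of the 7 red blood cell genes was not tested.

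**Figure D4:**
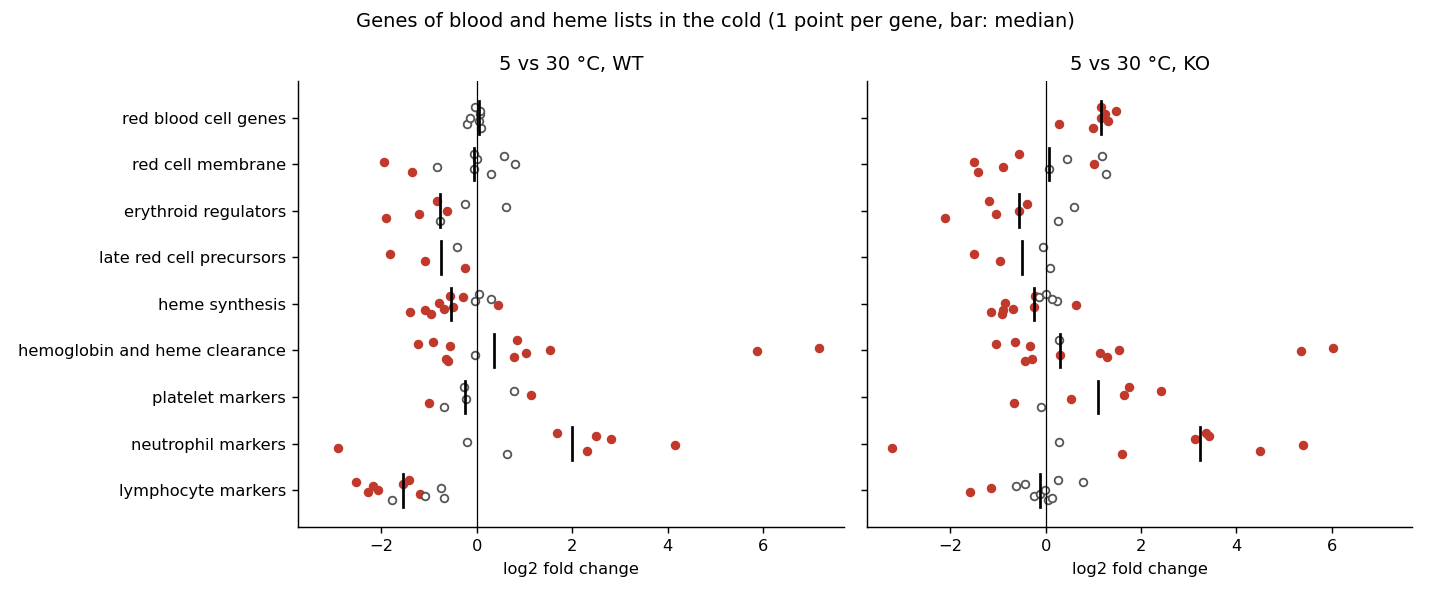
Log2 fold changes at 5 °C against 30 °C in WT and KO mice for the tested genes of 9 lists, with 1 point per gene, filled red where the adjusted p is under 0.05, and a bar at the list median. The 7 red blood cell genes sit near 0 in WT (median 0.05) and higher in KO (median 1.16), while the medians of heme synthesis and erythroid regulators are below 0 in both.

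Markers of other blood cells moved with the red blood cell genes in part. Of 11 platelet markers, 6 were tested, and 4 rose and 1 fell in KO cold (median 1.09) against 1 risen and 1 fallen in WT (median -0.24). Their summed level ranged from 13.4 to 15.5 CPM in KO30, 19.4 to 54.0 in KO5, 12.3 to 26.9 in WT30 and 18.0 to 23.8 in WT5. Of 12 neutrophil markers, 8 were tested, and 6 rose and 1 fell in KO cold (median 3.25) and 5 rose and 1 fell in WT (median 2.00). Their sum ranged from 2.79 to 6.25 CPM in KO30, 7.65 to 76.5 in KO5, 4.06 to 11.7 in WT30 and 8.2 to 16.7 in WT5.

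Of 12 lymphocyte markers, 11 were tested, and 2 fell in KO cold (median -0.11) and 7 fell in WT (median -1.55). Their sum ranged from 15.5 to 24.3 CPM in KO30, 5.09 to 49.8 in KO5, 14.9 to 31.0 in WT30 and 5.54 to 6.94 in WT5. KO5 mouse 27, with the highest Hbb-bs, also had the highest platelet and neutrophil sums of all mice, and WT30 mouse 7 the highest of its group. KO5 mouse 23 held the highest lymphocyte sum, with Hbb-bs at 587 CPM. None of these markers was called between KO and WT at either temperature, nor in the difference of cold responses. At an unadjusted threshold of 0.05, 5 of 6 platelet markers (median log2 difference 0.57), 6 of 11 lymphocyte markers (median 1.21) and 3 of 8 neutrophil markers (median 0.92) were higher in KO5 than in WT5, as were all 7 red blood cell genes. Over all tested genes, 7.47% were higher at that threshold. The KO5 sums were uneven. Mouse 23 held 49.8 CPM of lymphocyte markers and the next KO5 mouse 13.0. Mouse 27 held 76.5 CPM of neutrophil markers and the next KO5 mouse 32.4. Other blood cell markers thus also stood higher in KO5 by median difference, with single mice far above the rest. Their part in the levels of the 7 genes was not tested.

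Over the 26 mice, group-centred Hbb-bs correlated with the neutrophil sum (r = 0.63, rho = 0.60, permutation p adjusted over 6 lists 0.0107 and 0.027) and with the platelet sum (r = 0.64, rho = 0.53, adjusted permutation p 0.022 and 0.0533). The 6 lists were chosen after the data were seen. Without WT30 mouse 7 and KO5 mouse 27 these r were 0.41 and 0.27, so both relations rest in part on those mice, the platelet relation more. These lower values were not tested. The lymphocyte sum (r = 0.24, rho = 0.43), the sum of 12 endothelial markers (r = -0.26, rho = -0.18), the brown adipocyte sum (r = -0.23, rho = -0.23) and the muscle sum (r = -0.02, rho = -0.14) gave adjusted permutation p of 0.114 or more. Endothelial markers, which line the vessels that hold blood, were called higher for 5 and lower for 4 of 12 in KO cold, and for 7 and 5 in WT. Of 10 brown adipocyte markers 6 rose and 3 fell in KO and 5 rose and 2 fell in WT, and none of the 11 muscle markers was called in either. What part other blood cells, or the amount of blood in a sample, had in the levels of the 7 genes was not tested.

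Leaving out WT30 mouse 7 and KO5 mice 23 and 27 together, a choice made after seeing the data, left 7 of 7 genes called higher in KO cold (Hbb-bs 1.09, adjusted p = 0.000154; Bpgm 0.25, adjusted p = 0.0468). In WT the same choice gave 1 call, Alas2 (0.48, adjusted p = 0.0374), and Hbb-bs stood at 0.42 (adjusted p = 0.114, edgeR quasi-likelihood, Benjamini-Hochberg).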

How the data were processed

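RNA of BAT from 26 mice was sequenced by the authors as ribosomal-RNA-depleted, stranded, 100-base single-end libraries, aligned to mm10 with STAR 2.5.2b and counted per gene with featureCounts 1.5.2 on GENCODE M13. The deposited values are raw counts per gene, 1 column per mouse, matched to groups by the labels. The handling of reads that fit several genes, and of strand, is not given in the sources used here. All 17286 genes that passed filterByExpr were fitted in edgeR 4.0.16 (R 4.3.3, glmQLFit with 1 term per group, TMM scaling), the authors' design, with Benjamini-Hochberg adjustment over all of them and a threshold of 0.05. Log2 CPM used a prior count of 2. Exact permutation tests, within-group permutations (100000 resamples) and the correlations used scipy 1.17.1. The edgeR fit was tested on simulated data. Gene positions and transcript lengths came from GENCODE M21 (GRCm38), and 146 of 147 list genes matched; Ahsp was not analysed here.

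The 7 genes, the 14 gene lists and the tests were chosen with earlier results of these data known. Named genes were the 7, Afdn, Alas1, list members called in a comparison or else the 4 highest of their list, and the 10 genes most like the globins. Some genes that this rule names are not reported here. Alternatives were DESeq2 1.42.0, other scalings, filters and quasi-likelihood settings, fits of the compared groups alone, and leaving out mice. Replicates are separate mice.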

Additional observations from a re-analysis of the deposited data

Results flagged for a closer look

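In 8 of 28 sets of 4 to 10 mice (each of the 7 genes in each of the 4 groups), the highest mouse stood apart from the rest of its group by Dixon's 95% criterion, which chance meets in about 1 in 20 groups. The 7 genes vary together, so these sets are not independent. WT30 mouse 7 stood apart for Hba-a1 (97.0 CPM), Hba-a2 (33.7 CPM), Hbb-bs (862 CPM), Alas2 (61.2 CPM) and Bpgm (31.3 CPM). It also held the highest platelet and neutrophil sums of WT30, 26.9 and 11.7 CPM, and their part in these levels was not tested. WT5 mouse 17 stood apart for Hba-a1 (54.5 CPM) and Hbb-bs (537 CPM), and KO30 mouse 8 for Hbb-bs (486 CPM).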

How the results depend on the processing

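In the fits across all genes, none of the 7 was called under any alternative for KO against WT at 30 °C, at 5 °C or for the difference of cold responses. The exact permutation test of each gene alone, with no adjustment over genes, passed 0.05 at 5 °C for 6 of the 7 (p from 0.00505 to 0.0177), all but Slc4a1 (p = 0.0783). In KO cold, 4 genes were called with library size alone, which moved the median over all genes to -0.34, and Bpgm stood at -0.032, Alas2 at 0.68 (adjusted p = 0.0569) and Slc4a1 at 0.86 (adjusted p = 0.116). Upper-quartile factors ended the calls of Bpgm (0.12, adjusted p = 0.368) and Slc4a1 (1.00, adjusted p = 0.0529), and Bpgm was also lost with every gene of at least 1 count (adjusted p = 0.0725) and with at least 10 counts in every mouse (adjusted p = 0.108). In WT cold, 1 gene was called with upper-quartile factors (Bpgm) and 1 without the 3 mice that stood apart (Alas2). Leaving out each mouse gave 5 to 7 calls in KO cold and 0 in the other comparisons. Signs of small changes turned. In WT cold with library size alone the log2 changes were -0.18 for Hba-a1, -0.14 for Hbb-bs, -0.13 for Hbb-bt and -0.14 for Alas2, and with upper-quartile factors -0.058, -0.037, -0.038 and -0.027. Hba-a1 was -0.0036 with at least 10 counts in every mouse and -0.0005 with only the groups compared. The permutation test gave 0.050 for Hba-a2 and 0.34 for Slc4a1, and leaving out the 3 mice 0.25 and 0.51. At 30 °C without them KO minus WT was 0.15 for Hba-a1, 0.10 for Hba-a2, 0.15 for Hbb-bs, 0.30 for Alas2, 0.45 for Slc4a1 and 0.046 for Bpgm. The permutation test gave 0.039 for Alas2 and 0.35 for Slc4a1, and library size alone 0.02 for Bpgm. Leaving out each mouse, WT cold ranged from -0.094 to 0.47 for Hba-a1, -0.33 to 0.25 for Hba-a2, -0.076 to 0.42 for Hbb-bs, -0.051 to 0.36 for Hbb-bt, -0.029 to 0.48 for Alas2 and -0.23 to 0.51 for Slc4a1. KO minus WT at 30 °C ranged from -0.44 to 0.15 for Hba-a1, -0.46 to 0.10 for Hba-a2, -0.37 to 0.15 for Hbb-bs, -0.26 to 0.30 for Alas2, -0.32 to 0.45 for Slc4a1 and -0.14 to 0.047 for Bpgm. The cause of these changes was not tested. Counts over all genes moved more. For KO against WT at 5 °C they were 8 higher and 16 lower, with DESeq2 114 and 83, and with library size alone 4 and 1. At 30 °C they were 10 and 4, with DESeq2 36 and 12, with library size alone 34 and 0, and without the 3 mice 84 and 43. For the difference they were 50 and 150, with DESeq2 242 and 246, without the 3 mice 93 and 230, and with every gene of at least 1 count 0 and 27. No paired analysis was run, because the labels pair no mice and name no litters. The few reads of Slc4a1 limit its precision.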
